A study of Mus musculus with 13 samples.

Results

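Livers of mice that received a prostaglandin analogue before a hepatotoxic challenge were compared with livers of mice that received saline, to ask which genes still differed from the resting liver when the challenge came after pretreatment. The comparison used 7 of the 13 RNA sequencing libraries of the series, 4 from pretreated mice and 3 from saline mice, and covered all 14280 genes that were tested, out of 54532 in the count table. All mice were C57 BL6 wild type and 8 weeks old, and liver was taken 6 h after injection. The challenge was D-galactosamine (D-GalN) at 500 mg/kg with lipopolysaccharide (LPS) at 5 µg/kg, both intraperitoneal, and the pretreated mice had received 16,16-dimethyl prostaglandin E2 (dmPGE2) at 300 µg/kg 1 h before it. The challenge alone (GalN/LPS, 3 libraries) and dmPGE2 alone (3 libraries) are given beside the comparison for a part of the genes and lists. The study's design text names the mice by another injury model, while every sample label gives D-GalN/LPS, and columns named for liver failure were taken as that challenge. The labels do not say that each library came from its own animal, and if some did not, the p-values describe spread that may be technical.

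D-GalN is taken up mainly by hepatocytes, where its metabolism ties up uridine nucleotides and limits RNA synthesis. LPS, a cell wall component of Gram-negative bacteria, acts through Toll-like receptor 4 on Kupffer cells and other cells, which then release tumour necrosis factor and further cytokines. Hepatocytes with limited RNA synthesis are sensitised to killing by tumour necrosis factor. Prostaglandin E2 acts through 4 receptors, of which EP2 and EP4 raise cyclic AMP in macrophages, and dmPGE2 is a stable analogue of it.

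Gene counts summed to between 16910816 and 17649675 per pretreated library and to between 17018104 and 18425824 per saline library. The counts of the pretreated libraries lay on fewer genes. The 1000 most abundant genes of a library took 81.6% to 84.4% of its counts after pretreatment and challenge, and 75.4% to 75.8% in saline (two-sided exact permutation test, p = 0.0286, the smallest that 35 arrangements allow, and 0.0381 when adjusted over 4 such measures). Levels are therefore given as CPM, counts brought to a common library size, scaled by edgeR's trimmed mean of M values (TMM), which compares libraries through the bulk of genes. Calls against saline, and those against GalN/LPS that the text states, are given with library totals where that scaling changes them. The calls of GalN/LPS against saline were made with TMM alone. Among the pretreated libraries, numbers 3 and 4 were closer to each other (chi-square per degree of freedom 26.5) than to numbers 1 and 2 (55.6 to 99.7), and numbers 1 and 2 were at 33.1. Alb, which encodes albumin and defines hepatocytes, took 6.69% to 11.4% of counts in pretreated and 7.1% to 8.35% in saline libraries. Haemoglobin genes took 0.0363% to 0.0662% of counts in pretreated and 0.0205% to 0.073% in saline libraries.

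Much of the liver transcriptome still differed from saline. By edgeR's quasi-likelihood test with Benjamini-Hochberg adjustment at 0.05, 4969 genes (34.8% of those tested) were higher in pretreated than in saline livers and 4313 (30.2%) were lower. At least 2-fold differences were seen for 2544 genes (17.8%) on the higher and 2780 (19.5%) on the lower side. The median log2 fold change of all genes was 0.14. Scaled by library totals this median was -0.54, with 1683 genes (11.8%) higher and 6803 (47.6%) lower, so that the share of calls on the higher side went from 53.5% to 19.8%. The direction of small changes thus rests on the scaling, and a pretreated-to-saline log2 fold change is about 0.68 lower under library totals.

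The changes varied with abundance, but not in a steady rise. The genes were put into 10 equal groups by mean level. In the lowest group 261 were higher and 176 lower, at a median log2 fold change of 0.24, and in the next 364 and 246, at 0.28. The medians were lowest in the middle groups. In the highest group 1083 were higher and 109 lower, with a median log2 fold change of 0.79. In the fifth group from the bottom, between 6.12 and 9.7 CPM, 375 were higher and 677 lower, with a median of -0.40. With library totals the highest group held 382 higher and 303 lower genes at a median of 0.11. The genes above the zero line at the right of the plot include those for plasma proteins and metabolic enzymes, and many regulators lie in the lower middle, as described below.

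**Figure D1:**
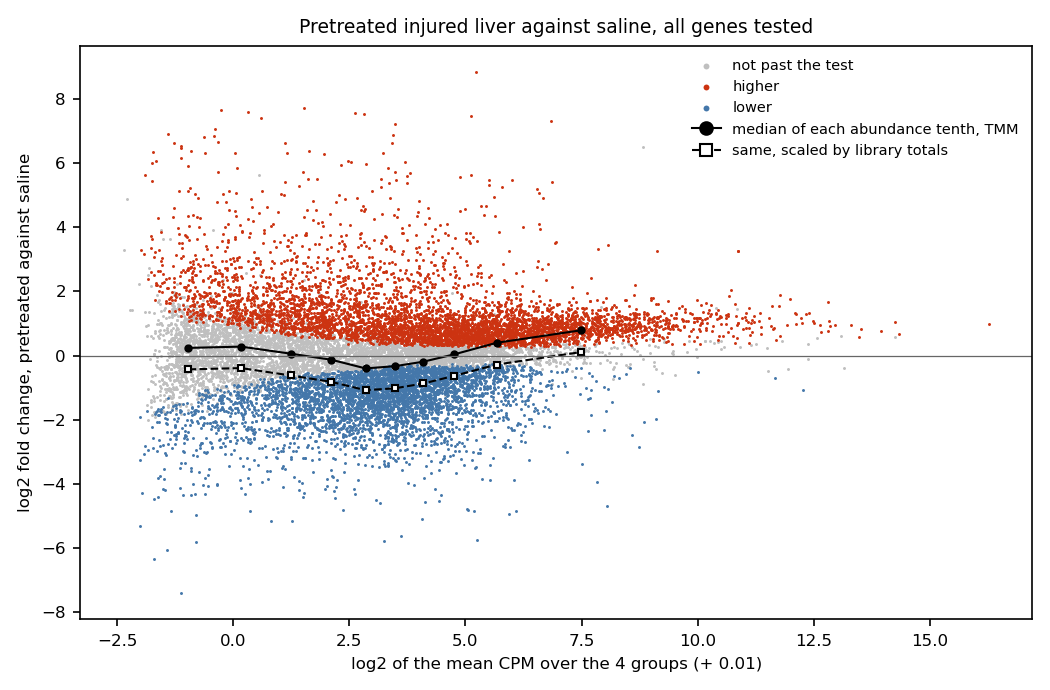
Log2 fold change of each tested gene in pretreated against saline livers (vertical axis) against log2 of its mean CPM over the 4 groups (horizontal axis). Red and blue points passed edgeR's test and grey points did not. Black lines join the medians of 10 equal groups of genes by abundance, which with TMM scaling (solid) go from 0.24 in the lowest group down to -0.40 in the fifth and up to 0.79 in the highest, and with library totals (dashed) are at -0.43, -1.08 and 0.11 in these groups.

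The 10 largest increases over saline included genes that LPS is known to switch on in myeloid cells. Acod1 (chromosome 14, 103046977 to 103056573), whose mitochondrial enzyme makes itaconate in macrophages, stood at 0.0459, 0 and 0.144 CPM in saline and at 33.1, 24.9, 45.0 and 28.6 CPM in pretreated livers. Every pretreated library was far above every saline library, a log2 fold change of 8.86 ± 0.43 (standard error) with an edgeR adjusted p of 8.01e-10. Only 4 Acod1 counts were found in the saline libraries together, so by counts the ratio was 509.7 with a 95% interval of 198.7 to 1872.8 that covers counting error only. Acod1 was at 139, 90.2 and 121 CPM after GalN/LPS alone and at 0.0375 to 0.174 CPM after dmPGE2 alone. Without saline library 3 its log2 fold change was 10.06.

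Cxcl2, a chemokine that draws neutrophils, varied widely among the pretreated livers, at 48.4, 11.8, 3.75 and 9.22 CPM, against 0, 0 and 0.288 CPM in saline (log2 fold change 7.48 ± 1.04, edgeR adjusted p = 1.35e-05). The pretreated library with the highest Cxcl2 was still below the GalN/LPS libraries, at 127, 97.3 and 136 CPM. Slfn4, a Schlafen family gene of myeloid cells, was at 158, 89.2, 73.0 and 121 CPM against 0.550, 0.598 and 0.913 CPM in saline, a log2 fold change of 7.31 ± 0.36. Slfn4 has near-identical relatives, so its reads could have been shared among them. Ccl4, which encodes a chemokine for monocytes and T cells, was at 11.3, 5.60, 8.26 and 10.7 CPM against 0.0917, 0.0997 and 0.192 CPM, a log2 fold change of 6.05 ± 0.38. No pretreated library overlapped a saline library for any of these genes. Cxcl2 rested on single libraries for its size, with a log2 fold change of 11.36 without saline library 3 and 6.34 without pretreated library 1.

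The other 6 of the 10 were Mefv, Il1r2, Clec4e, Mmp8, Ms4a4a and Chil1, with log2 fold changes between 5.97 and 7.55. Mefv, which encodes pyrin, had 2 counts in saline and 372 after pretreatment, which is 228.4 times as many per library size (counting interval 62.8 to 1893.3). Il1r2 encodes the decoy receptor for interleukin 1 and Mmp8 the neutrophil collagenase, and Mmp8 was tight among the pretreated livers at 11.5, 13.1, 12.5 and 11.3 CPM. Clec4e encodes Mincle, a receptor for damaged cells and microbial glycolipids. With so few counts in saline, the log2 fold changes of Mefv (7.55) and Il1r2 (7.23) became 10.03 and 8.43 without saline library 3, and that of Clec4e (6.63) became 10.27 without saline library 2. All 10 stood below their GalN/LPS level, with log2 fold changes between the groups of -0.97 (Ms4a4a) to -2.71 (Cxcl2), each past the test. In that comparison 24.4% of all genes were higher and 30.1% lower (4.31% and 47.6% with library totals), and it shares the pretreated libraries with the comparison against saline.

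**Figure D2:**
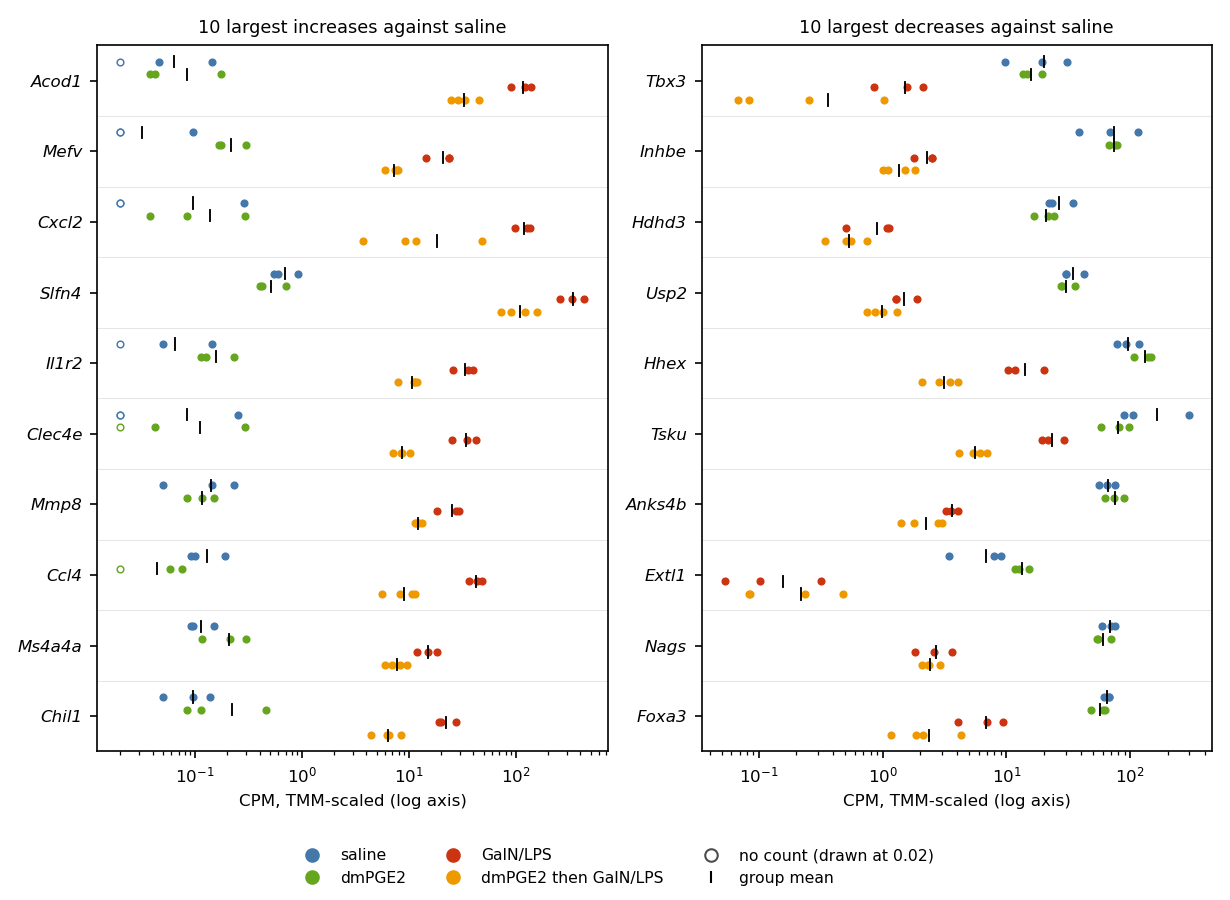
TMM-scaled CPM on a log axis of the 10 genes with the largest increase (left) and the 10 with the largest decrease (right) against saline, 1 point per library and a tick at each group mean. On the left the pretreated livers lie between the GalN/LPS and the saline livers, for example Acod1 at 24.9 to 45.0 CPM, and on the right they lie far below saline, for example Hhex at 2.06 to 4.06 CPM.

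Promoters of 3 induced genes and 1 reduced gene are shown with the short motifs found in them. Each runs from 250 bases before to 50 bases after the RefSeq start (GRCm38.p6), 5′ to 3′ on the gene's strand, with motif matches in capitals. For Cxcl2 (chr5:90903649-90903948, plus strand), Acod1 (chr14:103046762-103047061, plus strand) and Icam1 (chr9:21015690-21015989, plus strand) the capitals mark GGAAATTCC or its reverse complement GGAATTTCC, a form of the binding motif of NF-kB. For Ciart (chr3:95882179-95882478, minus strand) they mark CACGTG, the E box bound by CLOCK and BMAL1, which reads the same on both strands.
Cxcl2: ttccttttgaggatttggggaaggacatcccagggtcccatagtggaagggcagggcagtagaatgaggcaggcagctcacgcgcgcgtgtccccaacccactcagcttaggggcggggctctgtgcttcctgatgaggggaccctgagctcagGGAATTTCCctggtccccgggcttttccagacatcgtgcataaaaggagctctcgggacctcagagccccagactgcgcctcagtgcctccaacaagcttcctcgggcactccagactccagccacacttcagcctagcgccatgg
Acod1: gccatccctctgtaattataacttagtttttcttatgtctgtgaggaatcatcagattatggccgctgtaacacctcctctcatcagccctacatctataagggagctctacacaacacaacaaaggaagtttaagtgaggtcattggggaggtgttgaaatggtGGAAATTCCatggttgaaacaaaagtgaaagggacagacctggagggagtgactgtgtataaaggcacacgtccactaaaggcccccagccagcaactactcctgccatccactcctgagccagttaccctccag
Icam1: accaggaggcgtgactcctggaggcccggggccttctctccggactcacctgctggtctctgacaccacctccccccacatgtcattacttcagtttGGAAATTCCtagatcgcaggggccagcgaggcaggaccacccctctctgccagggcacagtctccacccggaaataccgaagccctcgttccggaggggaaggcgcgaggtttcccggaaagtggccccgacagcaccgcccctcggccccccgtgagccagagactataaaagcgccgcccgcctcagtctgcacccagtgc
Ciart: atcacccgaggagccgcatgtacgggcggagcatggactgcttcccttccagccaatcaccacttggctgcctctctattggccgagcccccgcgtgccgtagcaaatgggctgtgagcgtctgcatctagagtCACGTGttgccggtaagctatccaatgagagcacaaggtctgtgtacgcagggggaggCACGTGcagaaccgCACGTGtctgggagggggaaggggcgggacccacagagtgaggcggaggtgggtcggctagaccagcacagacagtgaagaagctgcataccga
The first motif lies 96 bases before the start in Cxcl2, 85 in Acod1 and 153 in Icam1, and 0.317% of 32851 RefSeq promoters of this length hold it. It was found in 3 of 14 cytokine and chemokine genes with a promoter in the table (Cxcl1, Cxcl2 and Cxcl10). Among NF-kB feedback and adhesion genes, 3 of 11 held it (Nfkbia, Tnfaip3 and Icam1). Acod1 was in neither list. Ciart held CACGTG 3 times, at 116, 58 and 44 bases before the start, as 0.0883% of promoters did, and 7.15% held it at least once. Of 17 clock and clock output genes with a promoter, 5 held it (Per1, Cry1, Tef, Ciart and Bhlhe41). The motifs and promoters were chosen after looking at the sequences, a match is not a binding site, and a window without one says nothing of the factor.

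Inflammatory genes as a group remained well above saline. Of 22 tested cytokine and chemokine genes, 18 were higher and none lower, with a median log2 fold change of 4.93 against 0.14 for all genes, and 16 were higher with library totals. Among all genes 34.8% were higher (11.8% with library totals). The summed level of the cytokine and chemokine genes was 320.5 to 426.4 CPM in pretreated and 39.6 to 52.6 CPM in saline livers, and 1363.6 to 2245.9 CPM after GalN/LPS alone. Tnf, the cytokine that kills sensitised hepatocytes, was at 6.91, 2.87, 7.09 and 5.08 CPM against 0.183, 0.0997 and 0.240 CPM in saline (log2 fold change 4.91 ± 0.45, edgeR adjusted p = 2.21e-07) and 23.6, 16.1 and 19.5 CPM after GalN/LPS. Il1b was at 35.6, 20.0, 27.9 and 30.7 CPM against 1.24, 0.498 and 1.01 CPM, a log2 fold change of 4.94 ± 0.28. The interferon-induced chemokine gene Cxcl10 was even across the pretreated livers, at 58.9, 55.0, 59.9 and 52.1 CPM against 1.74, 2.74 and 1.11 CPM. Il6 had no counts in saline and 18 in the pretreated libraries together, at least 7.37-fold higher when saline is set to 3 counts in all.

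Of 16 genes for NF-kB feedback and adhesion, 14 were higher and 2 lower than in saline (9 and 2 with library totals). For this list and those below, the shares of all genes were 34.8% higher and 30.2% lower (11.8% and 47.6% with library totals). Tnfaip3, which encodes the inhibitor A20, was at 10, 12.7, 14.9 and 14.8 CPM against 1.01, 0.747 and 2.07 CPM, a log2 fold change of 3.35 ± 0.29. Icam1, the adhesion molecule that arrests leukocytes on endothelium, had a smaller change of 1.59 ± 0.19, at 27.2, 28.0, 24.6 and 21.7 CPM against 9.31, 7.03 and 9.03 CPM. Relb rose by a log2 fold change of 2.24 ± 0.19. Of 22 interferon response genes, 17 were higher and 2 lower (12 and 2 with library totals), among them Gbp2, a guanylate-binding protein against intracellular microbes, with a log2 fold change of 5.07 ± 0.31, and Oasl2, a gene of the oligoadenylate synthetase family, with 3.70 ± 0.26. Both belong to families of close copies. Of 12 genes for antigen presentation and the immunoproteasome, 10 were higher and none lower, but with library totals 4 were higher and 1 lower.

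Immediate early genes, which cells switch on within minutes of a stimulus, were mixed. Of 20 tested, 13 were higher and 3 lower (8 and 3 with library totals), and 4 did not pass. The shares of all genes were 34.8% higher and 30.2% lower (11.8% and 47.6% with library totals). Ier3 was at 76.5, 16.8, 12.5 and 22.5 CPM against 0.642, 0.747 and 0.625 CPM in saline, a log2 fold change of 5.57 ± 0.63, and pretreated library 1 was high. Nr4a1, an orphan nuclear receptor gene, had a log2 fold change of 3.39 ± 0.33. Egr1 was at 55.7, 24.7, 9.17 and 18.9 CPM in pretreated livers but at 3.81, 2.14 and 76.8 CPM in saline, so that 1 saline library lay above all pretreated ones. Its log2 fold change was -0.02 with all libraries and 3.18 (edgeR adjusted p = 0.000183) without saline library 3. Without that library 1 of the 20 genes was lower, and Ier3 had 4.67 without pretreated library 1.

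Marker genes of blood-borne myeloid cells were high in the same livers. In bulk tissue more cells of a type and more RNA per cell cannot be told apart. Of 12 neutrophil markers 11 were higher and none lower, at a median log2 fold change of 5.39 and a summed level of 280 to 437.1 CPM against 5.18 to 18.5 CPM in saline and 716.4 to 957.6 CPM after GalN/LPS. All 8 monocyte markers were higher, with a summed level of 106.6 to 184.6 CPM against 7.87 to 11.4 CPM. Ccr2, the receptor that brings monocytes into tissue, was at 5.16, 11.9, 4.34 and 8.29 CPM against 1.19, 1.45 and 0.865 CPM. These counts were 10 and 8 with library totals. Among all genes 34.8% were higher with TMM and 11.8% with library totals. The part of cell influx in the inflammatory changes above was not tested.

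Marker lists of other cell types moved less. Their median log2 fold changes ran from 0.31 (B cells) to 1.47 (sinusoidal endothelium), against 5.39 for neutrophil and 4.42 for monocyte markers. Over all genes 34.8% were higher and 30.2% lower (11.8% and 47.6% with library totals). Of 12 Kupffer cell and macrophage markers, 8 were higher and none lower, at a median of 0.65. With library totals 5 were higher and 2 lower, at a median of -0.02. Marco, a scavenger receptor of Kupffer cells, rose far more than its list, at 127, 99.5, 142 and 106 CPM against 13.1, 3.79 and 6.25 CPM. Cd14, the LPS co-receptor counted with the monocyte markers, was at 43.2, 43.4, 45.0 and 32.7 CPM against 1.61, 1.495 and 1.78 CPM. Of 12 sinusoidal endothelial markers 11 were higher (7 with library totals), with the clearance receptor gene Stab1 at a log2 fold change of 1.41 ± 0.18. Stellate cell and fibroblast markers were higher for 3 of 11 and for none with library totals, and Dcn, which encodes decorin, was at 50.1, 173, 66.3 and 115 CPM against 41.0, 32.7 and 50.3 CPM, which overlap. Of 12 T and NK cell markers 7 were higher (5 with library totals), with the granzyme gene Gzma at 4.13, 4.24, 3.84 and 3.30 CPM against 0.0459, 0.150 and 0.288 CPM. Of 7 B cell markers 1 was higher and 2 were lower (none and 2 with library totals). Cholangiocyte markers were higher for 4 of 7, and erythroid and platelet markers for 4 of 8 (1 and 3 with library totals). Several of these counts moved when 1 library was left out. Without pretreated library 3, 2 Kupffer cell and macrophage markers were lower. Stellate cell and fibroblast markers were higher for 6 without pretreated library 1, for 5 without saline library 3, and for 1 without pretreated library 2 or saline library 1 or 2. B cell markers were higher for 2 without pretreated library 1, and lower for 0 without saline library 1 or 2 or pretreated library 2 and for 1 without pretreated library 1, 3 or 4. Cholangiocyte markers were higher for 2 without saline library 3 and lower for 1 without pretreated library 1, and erythroid and platelet markers were higher for 7 without saline library 2. Marco had a log2 fold change of 3.94, and 4.56 without saline library 1, and Gzma had 4.54, and 5.25 without saline library 3.

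The 10 largest decreases included transcription factors of the hepatocyte. Tbx3, a T-box factor of pericentral hepatocytes, was at 1.03, 0.0683, 0.0834 and 0.254 CPM against 19.5, 30.9 and 9.70 CPM in saline (log2 fold change -5.79 ± 0.54, edgeR adjusted p = 2.32e-07). An antisense gene overlaps Tbx3, and strand use in the counting is not known. Hhex (chromosome 19), a homeobox factor needed for liver development, was at 2.06, 3.48, 2.84 and 4.06 CPM against 117, 78.2 and 92.4 CPM, a log2 fold change of -4.94 ± 0.26. Foxa3, a forkhead factor that opens chromatin at liver genes, was at 4.29, 1.85, 1.17 and 2.12 CPM against 67.4, 61.8 and 67.0 CPM, a log2 fold change of -4.79 ± 0.31. Every pretreated library was below every saline library for each of them. Tbx3 had a log2 fold change of -7.19 without pretreated library 1.

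Inhbe, which encodes the hepatokine subunit activin E, was at 1.83, 1.503, 1.001 and 1.1 CPM against 68.7, 116 and 38.6 CPM (log2 fold change -5.76 ± 0.33). Nags, whose enzyme makes the activator of the urea cycle, was at 2.06, 2.32, 2.92 and 2.37 CPM against 59.0, 75.3 and 69.9 CPM. Usp2, a clock-controlled deubiquitinase gene, was at 0.873, 1.30, 0.751 and 1.02 CPM against 30.4, 42.0 and 30.5 CPM. The remaining genes were Hdhd3, Tsku, Anks4b and Extl1, with log2 fold changes of -4.83 to -5.63. Tsku encodes a secreted leucine-rich protein made by the liver, and 1 saline library (297 CPM) lay above the other two (88.6 and 106 CPM). Without that library, saline library 2, the log2 fold change of Tsku went from -4.86 to -4.11, and without pretreated library 2 that of Extl1 went from -4.83 to -5.56. Of the 10 genes, Tbx3, Hhex, Tsku, Anks4b and Foxa3 were also lower than in GalN/LPS livers, and for Inhbe, Hdhd3, Usp2, Extl1 and Nags that difference did not pass the test with TMM. With library totals Inhbe, Hdhd3, Usp2 and Nags passed it too (edgeR adjusted p of 0.0123, 0.0103, 0.00418 and 0.0323), and Extl1 did not (0.888). Pretreated library 1 overlapped the GalN/LPS livers for Tbx3 (0.849, 1.58 and 2.10 CPM after GalN/LPS) and Foxa3 (4.03, 9.33 and 7.02 CPM). After GalN/LPS alone Hhex was at 10.3, 20.1 and 11.7 CPM and Nags at 3.66, 1.83 and 2.61 CPM. All 10 genes were lower after GalN/LPS than in saline, by log2 fold changes of -2.78 (Hhex) to -5.45 (Extl1), each past the test.

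Hepatocyte transcription factors were low as a list. Of 17 tested, 14 were lower and 1 was higher than in saline, with a median log2 fold change of -2.50, and 15 were lower and none higher with library totals. Among all genes 30.2% were lower and 34.8% higher (47.6% and 11.8% with library totals). Cebpa, the factor that keeps hepatocytes differentiated, fell from 471, 518 and 480 CPM in saline to 36.9, 14.0, 8.67 and 15.7 CPM (log2 fold change -4.70 ± 0.38, edgeR adjusted p = 5.41e-08). Foxa2 fell by 4.04 ± 0.39 on the log2 scale, and Prox1 by 3.40 ± 0.21. Nr1h4, which encodes the bile acid receptor FXR, was at 35.6, 31.4, 35.9 and 38.9 CPM against 141, 159 and 115 CPM, and at 23.6, 22.6 and 20.5 CPM after GalN/LPS alone. The pretreated livers were above these by a log2 fold change of 0.67 (edgeR adjusted p = 0.000628) with TMM, and by 0.15, not past the test (adjusted p = 0.367), with library totals.

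The exception was Hnf4a, the central nuclear receptor of the hepatocyte network, at 580, 650, 738 and 848 CPM against 350, 354 and 414 CPM in saline. Its log2 fold change was 0.92 ± 0.18 (edgeR adjusted p = 0.000396), and 0.23 with library totals, where it did not pass the test (edgeR adjusted p = 0.178). Against GalN/LPS, 3 of the 17 factors were higher and 8 lower in pretreated livers, and none was higher and 11 lower with library totals. In that comparison 24.4% of all genes were higher and 30.1% lower (4.31% and 47.6% with library totals). After GalN/LPS alone 13 of the 17 were lower than in saline, where 25.6% of all genes were lower and 27.4% higher. Both comparisons against saline use the same saline libraries.

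Clock genes, which set daily rhythms in the liver, were also low. Of 20 clock and clock output genes 15 were lower and 1 was higher, at a median of -1.33, and 17 and 1 with library totals. The shares of all genes were 30.2% lower and 34.8% higher (47.6% and 11.8% with library totals). Dbp, a rhythmic activator of detoxification genes, was at 7.30, 7.04, 4.09 and 5.41 CPM against 75.8, 102 and 85.3 CPM in saline (log2 fold change -3.87 ± 0.19, edgeR adjusted p = 8.01e-10). Tef, its relative, fell by 1.78 ± 0.13 on the log2 scale. Bhlhe40, a repressor in the clock loop, was at 20.2, 12.4, 10.01 and 10.2 CPM against 82.8, 105 and 82.7 CPM. Ciart, whose promoter is printed above, was at 4.53, 1.503, 1.59 and 0.931 CPM against 13.7, 11.5 and 8.84 CPM. The log2 fold change of Ciart was -2.40, and -3.07 without pretreated library 1. Clock itself was the gene that was higher, at 25.7, 36.8, 35.8 and 37.6 CPM against 14.4, 14.4 and 16.9 CPM. Without saline library 2, 2 of the 20 genes were higher. The labels used here do not give the hour of collection for each group.

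**Figure D3:**
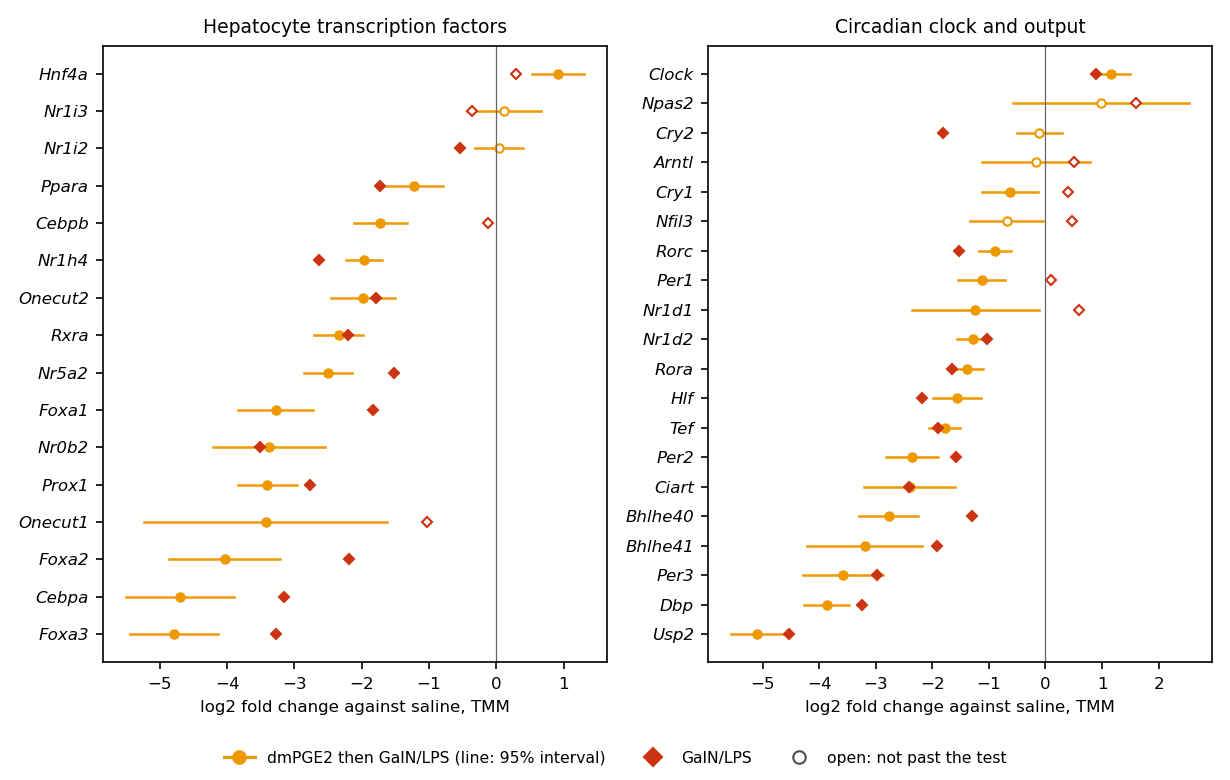
Log2 fold change against saline of hepatocyte transcription factors (left) and clock genes (right), with pretreated livers as orange circles with 95% intervals and GalN/LPS livers as red diamonds. Open symbols did not pass the test. One factor is not drawn. Of the circles 13 of 16 on the left and 15 of 20 on the right are filled and below 0.

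The machinery that makes ribosomes was lower, while ribosomal protein genes were higher with TMM scaling, as most abundant genes were. Of 20 ribosome biogenesis genes, 12 were lower and 1 was higher (18 and none with library totals). The higher ones were 2 without saline library 1 or pretreated library 4. Lower genes made up 30.2% of all genes with TMM and 47.6% with library totals. Nolc1, a nucleolar chaperone gene, was at 4.29, 5.47, 4.17 and 2.62 CPM against 24.5, 30.4 and 23.2 CPM (log2 fold change -2.64 ± 0.22). Rrn3, which recruits RNA polymerase I to ribosomal DNA, fell by 2.35 ± 0.21 on the log2 scale. All 24 ribosomal protein genes were higher with TMM, at a median of 0.89, and 6 with library totals, at a median of 0.21. These values were near those of the most abundant of the 10 groups of genes. That group had medians of 0.79 with TMM and 0.11 with library totals, with 1083 and 382 of 1428 genes higher. Rpl4 was at 1157, 999, 1047 and 1049 CPM against 444, 407 and 477 CPM. These genes have many processed copies that can take part of their reads.

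Genes for the liver's products were mostly above the saline level with TMM scaling, and fewer passed the test with library totals. Over all genes 34.8% were higher, but 1083 of the 1428 genes in the most abundant group were, and many of the genes in this and the next paragraphs are abundant. Of 19 plasma protein genes 18 were higher and none lower, with a median log2 fold change of 0.96, but with library totals 6 were higher and 1 lower. Plg, which encodes plasminogen, was at 4206, 3693, 3853 and 3921 CPM against 1440, 1028 and 1690 CPM (log2 fold change 1.5 ± 0.20, edgeR adjusted p = 7.73e-06). Alb was at 93276, 92291, 161291 and 158657 CPM against 60024, 60470 and 71739 CPM, so that pretreated libraries 3 and 4 were higher than 1 and 2. The log2 fold change of Alb was 0.98 ± 0.25, and 0.28 with library totals, not past the test (edgeR adjusted p = 0.162). Apob, the protein of very low density lipoprotein, had a log2 fold change of 1.34 ± 0.20. Complement genes were higher for 16 of 16 (10 with library totals), with Hc, which encodes complement C5, at 2339, 1963, 1990 and 1955 CPM against 761, 705 and 995 CPM.

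Of 21 acute-phase genes, whose plasma products rise in inflammation, 13 were higher and none lower (9 and 2 with library totals). Their summed level was 17247.8 to 51417.1 CPM in pretreated and 9557.5 to 20046.3 CPM in saline livers, which overlap. It was 13770.8 to 35814 CPM after dmPGE2 alone and 8420.3 to 11441.6 CPM after GalN/LPS alone. After GalN/LPS alone 5 were higher and 5 lower than in saline, where 27.4% and 25.6% of all genes were. Lcn2, which encodes an iron-trapping protein, was at 541, 199, 73.1 and 151 CPM against 51.0, 14.1 and 69.2 CPM, so that the lowest pretreated library was close to the highest saline library. Its log2 fold change was 2.43, and 1.66 without pretreated library 1. Saa3, from a family of close copies, was at 214, 291, 163 and 159 CPM against 10.1, 8.77 and 34.2 CPM. Without saline library 3 the log2 fold change of Saa3 went from 3.54 to 4.45. Cp, the copper carrier ceruloplasmin, had a log2 fold change of 1.58 ± 0.19.

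Of 17 genes for bile acid synthesis and transport, 12 were higher and 2 lower (7 and 4 with library totals). Abcb11, the canalicular bile salt export pump, was at 954, 928, 1068 and 948 CPM against 243, 270 and 336 CPM (log2 fold change 1.79 ± 0.19), and Cyp27a1, which starts the alternative pathway of synthesis, rose by 1.80 ± 0.20. Cyp7a1, the rate-limiting enzyme of the classical pathway, went the other way, at 98.4, 31.6, 47.8 and 60.0 CPM against 174, 259 and 203 CPM (log2 fold change -1.84 ± 0.32). In GalN/LPS livers Cyp7a1 was lower still, at 14.9, 20.9 and 9.12 CPM, and the pretreated livers were above these by a log2 fold change of 1.99 (edgeR adjusted p = 0.000296). Of 14 cytochrome P450 and reductase genes 11 were higher and 1 lower (7 and 3 with library totals), with Cyp1a2, which oxidises caffeine and aromatic amines, at 2979, 2322, 1987 and 1989 CPM against 802, 1122 and 662 CPM. The 1 lower gene of these lost its call without saline library 3 and without pretreated library 2, 3 or 4, which each left 0. For zonation, 7 of 11 pericentral genes were higher and 3 lower, the lower ones being Tbx3, the Wnt target Axin2 (log2 fold change -4.20 ± 0.62) and the R-spondin receptor gene Lgr5 (-2.98 ± 0.29). With library totals 2 were higher and 4 lower. Of 10 periportal genes 6 were higher and none lower (3 and 2 with library totals).

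Of 23 genes for cholesterol synthesis and uptake, 11 were higher and 7 lower than in saline with TMM, the lower share being near that of all genes (34.8% higher and 30.2% lower). With library totals 5 were higher and 9 lower. Nsdhl and Cyp51, enzymes of the late steps, were higher, with Nsdhl at 139, 108, 169 and 144 CPM against 40.7, 49.97 and 53.2 CPM (log2 fold change 1.54 ± 0.20). Hmgcs1, an early enzyme, was lower by 1.12 ± 0.22 on the log2 scale. Compared with GalN/LPS, 20 of the 23 were higher and none lower (16 with library totals). In that comparison 24.4% of all genes were higher (4.31% with library totals). After GalN/LPS alone 15 of the 23 were lower than in saline and none higher, where 25.6% of all genes were lower. Hmgcs1 was at 36.5, 21.9 and 21.2 CPM in GalN/LPS, 71.5, 58.0, 68.2 and 87.3 CPM in pretreated and 135, 117 and 211 CPM in saline livers, 3 ranges that did not overlap. Without saline library 3, 3 of the 23 genes were lower than in saline.

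Of 15 fatty acid synthesis genes 8 were higher and 2 lower with TMM, and 1 and 5 with library totals. Srebf1, the factor that drives this pathway, was at 52.7, 50.5, 48.5 and 40.5 CPM against 120, 175 and 368 CPM. Its log2 fold change was -2.20, and -1.61 without saline library 3, the highest. Of the fatty acid synthesis genes 1 was lower without saline library 3 and without pretreated library 1 or 3. Of 18 fatty acid oxidation and ketogenesis genes 11 were higher and 1 lower (5 and 3 with library totals). All 20 nuclear genes of the respiratory chain were higher (7 with library totals), with the succinate dehydrogenase gene Sdha at 920, 942, 1064 and 956 CPM against 343, 256 and 360 CPM. Of 15 urea cycle and amino acid genes 9 were higher and 1, Nags, was lower (3 and 4 with library totals). Cps1, the urea cycle enzyme that Nags' product activates, was at 8321, 7529, 7545 and 6267 CPM against 2009, 1300 and 3194 CPM, the opposite of Nags.

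Of 14 genes for glucose production and insulin response 5 were higher and 3 lower (2 and 6 with library totals), near the 34.8% and not above the 30.2% of all genes. G6pc, the enzyme that releases glucose, was at 47.6, 43.9, 46.1 and 34.4 CPM against 203, 193 and 215 CPM (log2 fold change -2.24 ± 0.15), and Foxo1, a factor that drives it, fell by 2.93 ± 0.17 on the log2 scale. Of 8 glycogen genes 4 were higher and 1 lower (1 and 4 with library totals), the lower one being Ppp1r3b, a glycogen-targeting subunit, at 22.2, 13.3, 10.6 and 17.2 CPM against 112, 196 and 151 CPM. Without pretreated library 1, 2 glycogen genes were lower. Of 16 genes for galactose and uridine nucleotides, the pathways that D-GalN enters, 10 were higher and 3 lower (1 and 5 with library totals). Upp1, which breaks down uridine, was at 13.1, 9.43, 10.01 and 7.28 CPM against 1.15, 0.947 and 1.01 CPM, and Umps, which makes uridine monophosphate, at 9.61, 12.9, 9.51 and 9.39 CPM against 31.1, 29.3 and 31.4 CPM. Of the galactose and uridine genes 6 were higher without saline library 2. Of 13 genes of the growth hormone and IGF axis 7 were higher and 3 lower (3 and 6 with library totals).

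**Figure D4:**
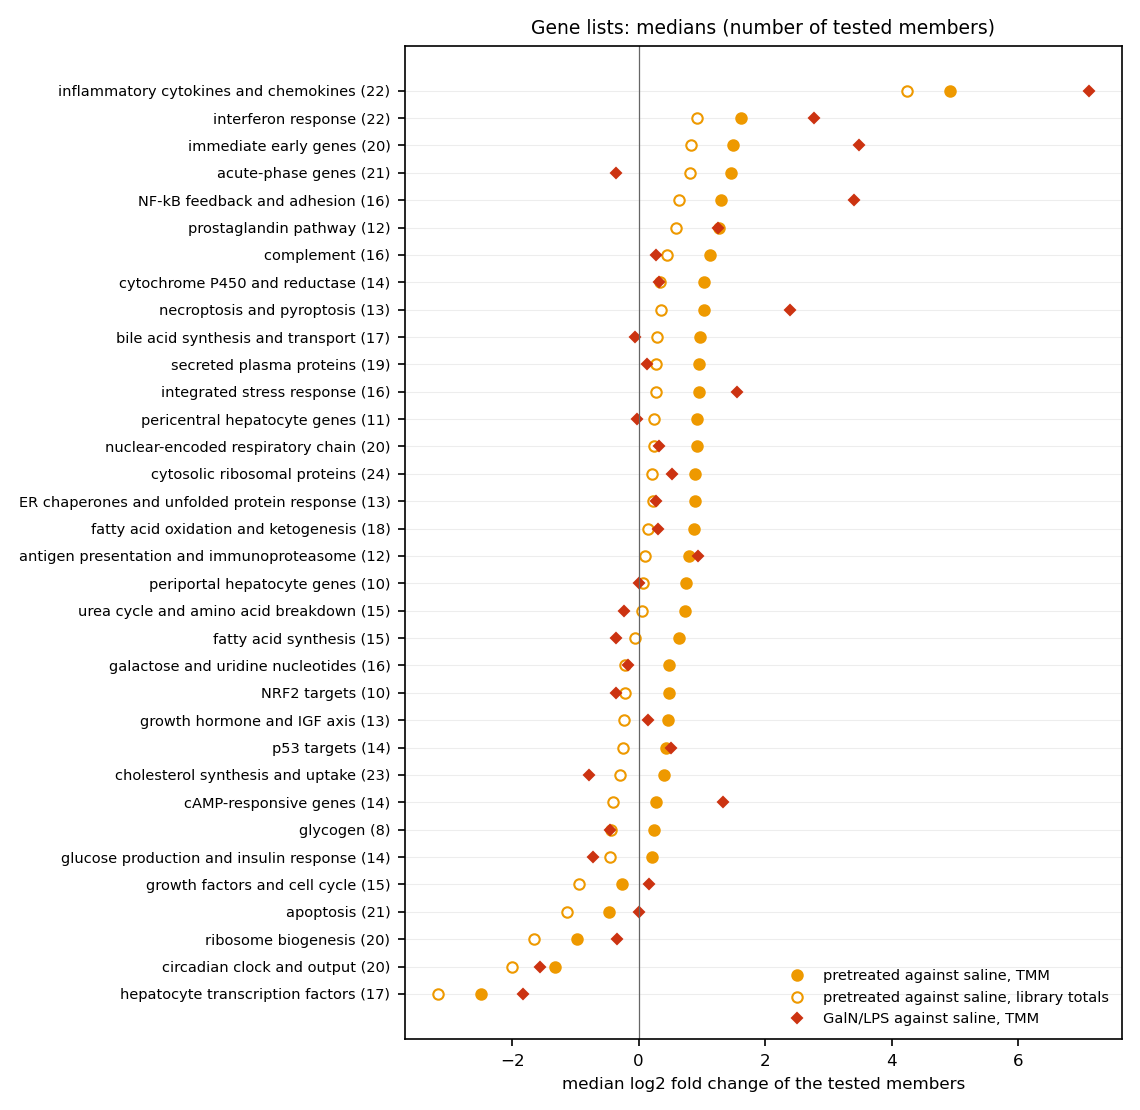
Median log2 fold change of the tested members of each gene list (number in brackets) in pretreated against saline livers with TMM scaling (filled orange) and with library totals (open orange), and in GalN/LPS against saline livers (red). Inflammatory cytokines lie at 4.93 and hepatocyte transcription factors at -2.50, both on the same side of 0 with either scaling, while medians such as that of fatty acid synthesis (0.64 and -0.05) change side.

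Lists of stress and death genes held both higher and lower members, and several had shares near those of all genes (34.8% higher and 30.2% lower). Of 16 integrated stress response genes 7 were higher and 4 lower (5 and 5 with library totals). Atf4, the factor at the centre of that response, was at 54.1, 39.01, 30.9 and 42.1 CPM against 89.4, 96.4 and 86.8 CPM, whereas the stress gene Nupr1 was at 8.02, 5.94, 5.42 and 6.60 CPM against 0.871, 0.648 and 0.913 CPM. Slc7a11, the cystine importer, had no counts in saline and 28 in the pretreated libraries together, at least 11.5-fold higher on the same basis of 3 counts. Of 13 ER chaperone and unfolded protein genes 6 were higher and 3 lower (3 and 4 with library totals). Xbp1, a master factor of secretory capacity, was at 36.1, 31.2, 18.9 and 23.2 CPM against 265, 182 and 208 CPM (log2 fold change -2.99 ± 0.19), and Dnajb9, its target, was lower by 1.93 ± 0.21 on the log2 scale, while the chaperone gene Pdia6 was higher by 1.29 ± 0.18.

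Of 14 p53 targets 6 were higher and 3 lower (3 and 5 with library totals). Cdkn1a, which encodes the cell cycle inhibitor p21, was at 21.8, 27.3, 18.2 and 17.2 CPM against 0.871, 0.747 and 1.201 CPM (log2 fold change 4.48 ± 0.33), while Mdm2, the p53 ubiquitin ligase, fell by 1.37 ± 0.17 on the log2 scale. Without saline library 1, 3 p53 targets were higher. Of 10 NRF2 targets 5 were higher and 2 lower (2 and 5 with library totals), with the haem oxygenase gene Hmox1 at 68.1, 89.2, 89.2 and 45.9 CPM against 9.45, 12.6 and 14.8 CPM, and Osgin1 lower by 2.70 ± 0.25 on the log2 scale.

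More apoptosis genes were lower than higher, 11 against 4 of 21 (14 and 2 with library totals). Among all genes 30.2% were lower and 34.8% higher (47.6% and 11.8% with library totals). After GalN/LPS alone 8 of the 21 were lower and 8 higher than in saline, where 25.6% and 27.4% of all genes were. Fadd, the adaptor of death receptors, was at 2.30, 2.12, 1.67 and 1.78 CPM against 9.72, 10.2 and 8.17 CPM (log2 fold change -2.24 ± 0.19, edgeR adjusted p = 1.24e-07), and the initiator caspase gene Casp9 was lower by 1.59 ± 0.16 on the log2 scale. After GalN/LPS alone Fadd was at 3.03, 2.08 and 3.23 CPM and Casp9 at 8.49, 6.745 and 6.81 CPM. Bid, which links caspase 8 to mitochondria, was lower by 2.14 ± 0.20, with an overlapping gene of higher count on the other strand. Pmaip1, which encodes NOXA, went the other way, with a log2 fold change of 3.04 ± 0.34. Of 13 necroptosis and pyroptosis genes 9 were higher and 1 lower (5 and 2 with library totals), with the inflammasome sensor gene Nlrp3 at 5.32, 2.73, 5.25 and 4.31 CPM against 0.780, 0.249 and 0.480 CPM, and Casp4, the caspase that senses intracellular LPS, higher by 3.38 ± 0.20. The lower one was Ripk1, a kinase at the tumour necrosis factor receptor, at 8.49, 9.57, 5.67 and 7.11 CPM against 20.2, 15.5 and 22.5 CPM. Without saline library 3 or pretreated library 4, 2 genes of this list were lower. Of 15 growth factor and cell cycle genes 5 were higher and 7 lower (1 and 8 with library totals), and the hepatocyte growth factor receptor gene Met was at 15.6, 18.7, 17.9 and 19.9 CPM against 71.5, 65.2 and 65.5 CPM. Without saline library 1, 4 growth and cell cycle genes were lower.

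Genes of the prostaglandin pathway and of cyclic AMP were also listed. Which of their changes go with the pretreatment and which with the challenge was not tested. Of 12 prostaglandin genes 9 were higher and 2 lower than in saline (4 and 2 with library totals). Ptgs2, the inducible cyclooxygenase, was at 0.635, 0.820, 0 and 0.592 CPM against 0, 0 and 0.0961 CPM, a ratio by counts of 16.6 with a counting interval of 4.17 to 143.9, and the groups overlapped. After GalN/LPS alone it was at 13.2, 4.48 and 6.25 CPM, and after dmPGE2 alone at 0, 0.058 and 0 CPM. The log2 fold change of Ptgs2 was 3.77, and 6.25 without saline library 3, which held its saline counts. In the fits to FPKM its change did not pass the test (limma adjusted p of 0.517, 0.108 and 0.673). Slco2a1, the transporter that takes prostaglandins up for breakdown, was at 113, 121, 193 and 142 CPM against 40.8, 51.3 and 55.4 CPM, and Hpgd, which inactivates prostaglandin E2, at 88.0, 79.2, 120 and 122 CPM against 49.7, 57.6 and 42.2 CPM (log2 fold change 1.04 ± 0.23, and 0.34 with library totals, where it did not pass the test). Ptges3 was lower by 1.78 ± 0.17 on the log2 scale. Among receptors, Ptger4 (EP4) was at 1.51, 1.44, 1.17 and 2.20 CPM against 0.734, 0 and 0.336 CPM, with an overlapping gene of higher count, Ptger2 (EP2) had a log2 fold change of 0.45 with a 95% interval of -0.35 to 1.25, and Ptger1 and Ptger3 were too low to be tested. Ptger4 had a log2 fold change of 2.10, and 3.16 without saline library 1. Of 14 genes that respond to cyclic AMP 5 were higher and 5 lower, shares near the 34.8% and 30.2% of all genes. With library totals 3 were higher and 7 lower, where 11.8% and 47.6% of all genes were. Among the lower ones, the kinase gene Sik1 was at 7.86, 4.78, 3.503 and 3.89 CPM against 13.5, 12.5 and 19.2 CPM. After dmPGE2 alone Sik1 was at 6.45, 7.43 and 7.85 CPM, not past the test against saline (edgeR adjusted p = 0.0832). After GalN/LPS alone it was at 17.8, 17.8 and 21.4 CPM.

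Against both saline and GalN/LPS, some genes lay beyond either. The rule for these used both contrasts, so their values are a description. Setdb2, which encodes a histone methyltransferase induced by interferon and glucocorticoids, was at 37.6, 43.2, 80.9 and 57.4 CPM, against 7.98, 7.03 and 8.02 CPM in saline, 8.49, 10.2 and 6.35 CPM after GalN/LPS and 9.22, 7.89 and 9.53 CPM after dmPGE2 alone. Trp53inp1, a p53 target of stress and autophagy, was at 170, 158, 418 and 336 CPM, against 28.8, 28.9 and 46.7 CPM in saline and 45.7, 42.4 and 42.8 CPM after GalN/LPS. The pretreated livers stood alone for both genes, and for Trp53inp1 libraries 3 and 4 were the highest. Cyp2b10, the classical target of the receptor CAR and 1 of a family of close copies, was at 88.0, 33.5, 71.1 and 30.9 CPM, against 4.86, 2.29 and 4.71 CPM in saline, 5.84, 18.2 and 8.04 CPM after GalN/LPS and 23.8, 15.9 and 32.2 CPM after dmPGE2 alone. The other 2 genes of this kind were Fam107a and Defb1. Fam107a was at 12.0, 11.6, 11.9 and 9.47 CPM, against 0.321, 0 and 0.384 CPM in saline and 1.43, 2.58 and 1.38 CPM after GalN/LPS. Defb1, an epithelial defensin gene, was at 6.11, 3.96, 8.17 and 7.36 CPM, against 0.321, 0.598 and 0.865 CPM in saline. It was at 0.743, 0.630 and 2.87 CPM after GalN/LPS. After dmPGE2 alone Defb1 was at 2.55, 4.005 and 1.77 CPM, which overlapped the pretreated livers.

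On the low side the same rule gave Hhex and 4 others. Fzd4, a Wnt receptor gene, was at 2.46, 7.45, 4.67 and 5.33 CPM, against 30.2, 26.3 and 22.3 CPM in saline and 24.6, 17.5 and 23.0 CPM after GalN/LPS. Phlda1 was at 14.7, 2.73, 2.92 and 4.15 CPM, against 39.5, 18.4 and 63.3 CPM in saline. After GalN/LPS it was at 15.45, 30.95 and 44.05 CPM, so that pretreated library 1 lay next to the lowest of these. Onecut1, a factor of hepatocyte and biliary fate, was at 1.11, 0.820, 0.5004 and 0.592 CPM, against 17.8, 1.99 and 4.90 CPM in saline, where 1 library was high, and 33.3, 33.1 and 14.3 CPM after dmPGE2 alone. After GalN/LPS alone Onecut1 was at 1.22, 10.1 and 1.13 CPM, so that 2 of those 3 libraries lay next to the highest pretreated one and 1 was far above. Irgq was at 6.03, 1.91, 0.751 and 1.86 CPM against 16.1, 14.5 and 15.8 CPM in saline, and overlapped the GalN/LPS livers. Without pretreated library 1 the log2 fold change of Phlda1 went from -2.73 to -3.63 and that of Irgq from -2.55 to -3.34, and without saline library 1 that of Onecut1 went from -3.43 to -2.17.

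Other genes were at least 4-fold from saline and close to the GalN/LPS level. Zbtb16, a zinc finger gene that glucocorticoids induce, was at 42.4, 24.5, 26.8 and 21.7 CPM in pretreated and 25, 26.1 and 17.0 CPM in GalN/LPS livers, against 1.83, 1.15 and 2.11 CPM in saline. Nt5e, which encodes the adenosine-forming enzyme CD73, was at 6.35, 7.31, 11.5 and 10.3 CPM and at 8.33, 8.89 and 3.38 CPM, against 2.11, 0.897 and 1.83 CPM. With library totals Rhobtb1, below, and Ccr2 were lower than in GalN/LPS livers (edgeR adjusted p of 0.0367 and 0.0383). Saa3, Lcn2 and Ccr2, given above, belonged to this set. Lcn2 was at 182, 750 and 80.6 CPM after dmPGE2 alone, which did not pass the test against saline (edgeR adjusted p = 0.127). On the low side, Rhobtb1 was at 12.5, 7.31, 9.01 and 8.63 CPM in pretreated and 8.18, 9.14 and 10.8 CPM in GalN/LPS livers, against 40.1, 44.0 and 54.6 CPM in saline. Mfsd2a, the carrier of lysophospholipids with docosahexaenoic acid, was at 4.84, 2.46, 2.42 and 1.27 CPM and at 1.22, 3.91 and 3.28 CPM, against 34.8, 18.9 and 33.2 CPM. Pex26, Gorasp1 and Ciart completed this set, with log2 fold changes against saline of -2.63, -2.30 and -2.40. Without pretreated library 1, Ciart had -3.07 and Lcn2 1.66.

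**Figure D5:**
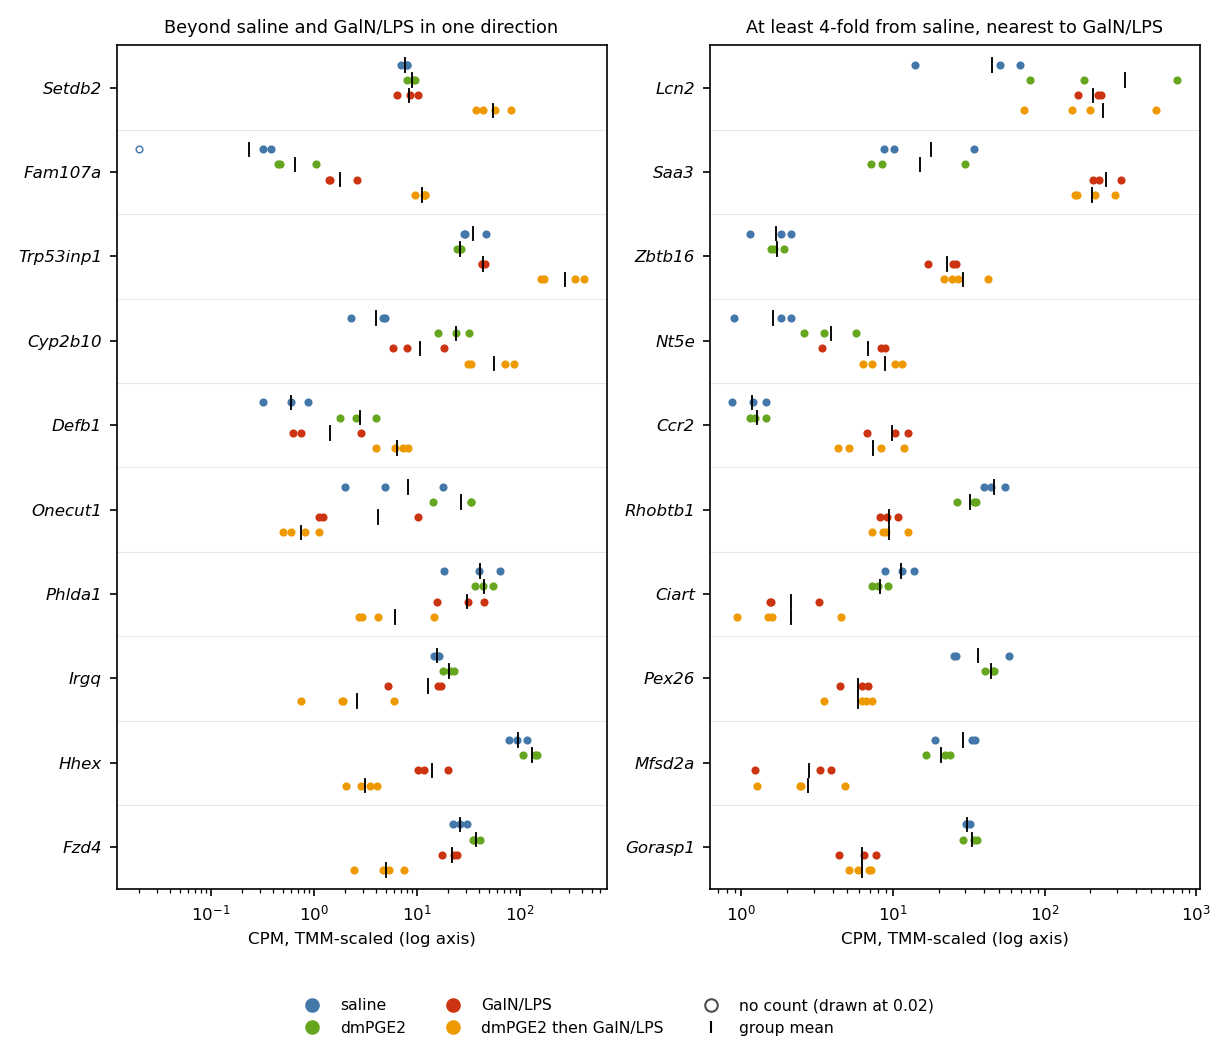
TMM-scaled CPM on a log axis, 1 point per library and a tick at each group mean, of genes that lay beyond both saline and GalN/LPS in 1 direction (left) and of genes at least 4-fold from saline and nearest to GalN/LPS (right). Setdb2 in pretreated livers lies at 37.6 to 80.9 CPM, above all other groups, and Zbtb16 lies at 21.7 to 42.4 CPM, over the range of GalN/LPS.

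A last set held genes at least 4-fold changed by GalN/LPS alone and nearest to saline after pretreatment. The rule picked them for nearness, so it gives no evidence of return. Spry4 and Spred1, which restrain growth factor signalling, were at 0.873, 2.73, 0.917 and 1.02 CPM and at 5.001, 7.79, 6.84 and 6.68 CPM in pretreated livers, over saline ranges of 1.10 to 1.87 and 4.98 to 7.93 CPM. After GalN/LPS alone Spry4 was at 16.8, 11.7 and 19.4 CPM and Spred1 at 34.7, 21.6 and 31.9 CPM. Nes, which encodes nestin, and Sntb2 had log2 fold changes against saline of 0.03 and 0.11, and the direction of these 4 and of Egr1 changed with the processing. Among genes that GalN/LPS lowered, Parp16, at 20.0, 12.8, 13.4 and 11.5 CPM against 25.9, 26.4 and 25.6 CPM in saline and 4.94, 3.78 and 5.17 CPM after GalN/LPS, was still below saline (log2 fold change -0.84 ± 0.17, edgeR adjusted p = 0.000361). Garem1 and Dnajc12 were also still below, by 1.07 and 0.87 on the log2 scale, and Dnajc12 lost this call in 5 of the 7 fits that left out 1 library, with -0.39 without saline library 3. Scara5, an iron uptake receptor gene, had a log2 fold change of -0.40 that did not pass the test, at 14.8, 12.2, 1.33 and 4.82 CPM against 14.9, 6.58 and 11.6 CPM.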

How the data were processed

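Gene counts and FPKM of 13 mouse liver libraries were used as the authors deposited them, whole-number counts per gene and FPKM values normalised by gene length and depth. HISAT2 and GRCm38/mm10 are named in the submitters' processing notes. Libraries were made with the NEBNext Ultra RNA kit per the labels' protocols, and how genes were counted (tool, annotation, strand) is not stated in what was available here. Totals were 14829838 to 20777809 counts per library. Columns were matched to samples by name. Counts were fitted with edgeR 4.0.16 (R 4.3.3), quasi-likelihood F test, all 13 libraries, group as the only term, TMM factors and edgeR's own filter on low counts, with Benjamini-Hochberg adjustment over 14280 genes at 0.05. Alternatives were DESeq2 1.42.0, DESeq2 size factors, library totals, no filter, 7 libraries, a replicate block, each library left out, and limma 3.58.1 on log2 of the deposited FPKM plus 1 or 0.1 (filter FPKM of 0.5 in 3 libraries, or none). The genes named are the 10 largest changes each way past the test without overlap and at 5 CPM or more in the higher group, 5 each way for each pattern against GalN/LPS, up to 4 of smallest adjusted p per list, and the genes of the prostaglandin receptors, main cytokines and albumin, of which the text gives a part, and some genes are not reported here. Hnf4a, Clock, Hmgcs1, Msmo1, Cebpa, Foxa2 and Cyp7a1 were added after their values were seen. The comparison, the 43 lists and the rules were chosen with earlier results of these data known. No 2 libraries of a group agreed within sampling noise, and confidence intervals of count ratios and floors cover counting error only.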

Additional observations from a re-analysis of the deposited data

Results flagged for a closer look

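Among 133 features checked in the 4 pretreated libraries, 126 genes and 7 library measures, 10 genes had 1 library whose gap to the nearest other took most of the whole range, beyond the 95% limit of Dixon's test, and chance alone flags about 1 in 20 such groups. Pretreated library 1 stood apart for Ier3, at 76.5 CPM against 12.5 to 22.5 CPM (0.844 of the range), for Relb, at 7.62 CPM against 5.81 to 6.09 CPM (0.844), for Phlda1, at 14.7 CPM against 2.73 to 4.15 CPM (0.882), for Hc, at 2339 CPM against 1955 to 1990 CPM (0.91), and, on the low side, for Clock, at 25.7 CPM against 35.8 to 37.6 CPM (0.844). Library 2 stood apart for the growth factor brake gene Spry4, at 2.73 CPM against 0.873 to 1.02 CPM (0.924), and for Umps, at 12.9 CPM against 9.39 to 9.61 CPM (0.939). Library 4 was the low one for Il1r2, at 7.95 CPM against 11.2 to 11.8 CPM (0.834), for Fam107a, at 9.47 CPM against 11.6 to 12.0 CPM (0.852), and for Cd14, at 32.7 CPM against 43.2 to 45.0 CPM (0.856). Spry4 had a log2 fold change of -0.53 without library 2. The calls of the other 9 genes held in every fit that left out 1 library.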

How the results depend on the processing

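The number of genes higher in pretreated than in saline livers was 4969 and the number lower 4313 with TMM, and 1683 and 6803 with library totals. At least 2-fold differences numbered 2544 higher and 2780 lower with TMM, 861 and 5048 with library totals, 948 and 1175 with limma on log2(FPKM + 1), and 931 and 1169 with no filter on FPKM. The pseudocount of 1 understates changes of low genes. Leaving out each library in turn gave 4516 to 4864 higher, 3948 to 4233 lower, 2419 to 2647 at least 2-fold higher and 2698 to 2801 at least 2-fold lower genes. The replicate numbers showed no sign of pairing, with correlations of deviations of -0.03, -0.11 and -0.04 for equal numbers and -0.08 to 0.11 for unequal ones. With so few libraries a group, these values cannot exclude a shared batch. A replicate block gave 4578 higher and 4036 lower genes, with 2448 and 2709 at least 2-fold apart. Among the 86 list counts, 52 moved by more than 1.5 times with library totals and at most 11 under any other setting. The genes chosen for lying near saline changed sign. Egr1 (-0.02) had log2 fold changes of 1.01 with the replicate block and 0.68, 1.19 and 0.68 in the FPKM fits, and -0.64 to 3.18 when 1 library was left out. Nes (0.03) had -0.03 with DESeq2 and with its size factors, -0.64 with library totals, -0.13 with no filter, -0.12 with 7 libraries, -0.07 with the block, -0.01 with unfiltered FPKM and -0.13 to 0.29 with 1 library out. Spry4 (0.06) had -0.58 with library totals, -0.09 with no filter, -0.01 with DESeq2, -0.10 with 7 libraries, -0.02 and -0.11 in the FPKM fits and -0.53 to 0.37 with 1 library out. Library totals gave -0.56 for Sntb2, -0.53 for Spred1, -0.21 for Ptger2 and -0.33 for Msmo1, no filter gave -0.05 for Sntb2 and -0.02 for Spred1, and 7 libraries gave -0.05 and -0.01. The cause was not tested. Genes with few counts in saline limit the ratios given. In the limma fits to FPKM, Ptgs2 and Dnajc12 lost their calls each time. Il6 lost its call with a pseudocount of 1, and Slc7a11, Onecut1, Lcn2 and Alb lost theirs with no filter.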

Other observations

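Msmo1, a C4 demethylase of cholesterol synthesis, was at 230, 162, 192 and 204 CPM in pretreated, 71.5, 55.3 and 49.0 CPM in GalN/LPS and 138, 114 and 209 CPM in saline livers, a log2 fold change against saline of 0.36 that passed edgeR's test without saline library 3 (0.65, adjusted p = 0.00545) and not with all libraries (adjusted p = 0.109).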
